A study of Mus musculus with 8 samples.

Results

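The genes described here encode the nuclear share of respiratory complexes I and III. They were the rows of the gene count table whose symbol begins with Ndufa, Ndufb, Ndufc, Ndufs, Ndufv or Uqcr and that had at least 10 counts in each of the 8 libraries. Of the 52636 rows, 61 carry such a symbol and 55 passed the count minimum. The 6 rows left out were the pseudogenes Ndufa11b, Ndufab1-ps, Ndufb4c, Ndufs6b, Uqcrh-ps1 and Uqcrh-ps2, none of which exceeded 4 counts in a library. The lowest count of a gene that was kept was 61. By role, the 55 genes are 37 subunits of complex I, 8 complex I assembly factors (Ndufaf1 to Ndufaf8), 8 subunits of complex III, and Ndufa4 with its paralog Ndufa4l2. Among the complex I subunits, Ndufb1-ps is annotated as a long noncoding RNA in the mouse annotation used. The prefixes leave out cytochrome c1 (Cyc1), the mitochondrially encoded subunits and most assembly factors, whose values are given as separate lists.

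The cells were mouse liver endothelial cells, which line blood vessels, grown in culture and sorted for VE-cadherin and CD31 among live cells without the leukocyte marker CD45. The 4 groups, with 2 libraries each, were dKO cells with IL1B and TNFA, dKO cells without these cytokines (control), WT cells with the cytokines and WT control cells. The labels do not expand dKO. The series text names deletion of Erg, Fli1 or both, ETS transcription factors of endothelium, brought about with 4-OHT, the active metabolite of tamoxifen. Cells were in 4-OHT for 48 hours and were kept for 7 days, and the cytokines were present for the last 16 hours. By the labels this 4-OHT treatment applied to WT and dKO alike, and the labels place it in the culture medium in one field and in mice in another. The labels name neither the Cre driver, the strain and the age of the mice, nor whether replicates came from separate animals. The p-values therefore measure the spread between these libraries, which may be technical.

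Complex I takes electrons from NADH and passes them to ubiquinone while pumping protons across the inner mitochondrial membrane. Complex III takes them from ubiquinol to cytochrome c, and complex IV from cytochrome c to oxygen. Each complex has a few core subunits that carry the redox centres or the catalytic sites and a larger shell of accessory subunits, and complex I is built from modules with the help of assembly factors. Endothelial cells draw much of their ATP from glycolysis even with oxygen present. In mammals, promoters of many respiratory chain genes carry sites for NRF1, for YY1 and for the ETS family factor GABP.

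Because the deleted genes are ETS factors, the promoters were read for the ETS letters CCGGAA, for the NRF1 letters GCATGCGC and for the YY1 letters AAGATGGC, on both strands. RefSeq promoters of build GRCm38.p6, 250 bases before to 50 after the annotated start, were matched by symbol for 45 of the 55 genes. The ETS letters were present in 15 of the 45 (33.3%) and in 16.7% of the promoters of all 27025 genes of the table. The NRF1 letters were present in 7 of the 45 (15.6%), against 3.05% of all genes, and the YY1 letters in 8 (17.8%), against 3.19%. Among the 11 of these 45 genes that passed the test between dKO and WT in at least 1 treatment, the ETS letters were present in 2, Ndufa9 and Uqcrh. They were present in 13 of the other 34 (38.2%). The NRF1 letters were present in 3 of the 11 (27.3%) and in 4 of the other 34 (11.8%), and the YY1 letters in 1 of the 11 and 7 of the other 34. A match is a run of letters and not a bound site, and binding was not measured.

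To show what these windows look like, the 250 bases before the RefSeq start are printed for 4 genes that differed between dKO and WT under both conditions. These are Ndufa4 and Ndufaf4, lower in dKO, and Ndufa6 and Uqcrh, higher in dKO. The GENCODE gene positions given further on begin elsewhere for Ndufa4, Ndufa6 and Uqcrh, so these windows reach into the gene as annotated there. Each is written 5′ to 3′ on the strand of its gene, and capitals mark a match to a searched motif. The positions are chr6:11907451-11907700 on the minus strand for Ndufa4, chr4:24897833-24898082 on the plus strand for Ndufaf4, chr15:82354292-82354541 on the minus strand for Ndufa6 and chr4:116075071-116075320 on the minus strand for Uqcrh.
Ndufa4: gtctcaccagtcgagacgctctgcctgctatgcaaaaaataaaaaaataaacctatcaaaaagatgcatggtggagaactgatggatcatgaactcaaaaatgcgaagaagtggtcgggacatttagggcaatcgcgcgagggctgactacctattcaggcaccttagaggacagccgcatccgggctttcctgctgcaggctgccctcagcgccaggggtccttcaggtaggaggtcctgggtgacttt
Ndufaf4: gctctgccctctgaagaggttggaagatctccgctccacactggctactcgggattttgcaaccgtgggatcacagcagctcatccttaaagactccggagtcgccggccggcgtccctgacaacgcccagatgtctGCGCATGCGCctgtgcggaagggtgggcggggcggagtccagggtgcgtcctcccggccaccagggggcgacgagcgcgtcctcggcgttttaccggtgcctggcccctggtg
Ndufa6: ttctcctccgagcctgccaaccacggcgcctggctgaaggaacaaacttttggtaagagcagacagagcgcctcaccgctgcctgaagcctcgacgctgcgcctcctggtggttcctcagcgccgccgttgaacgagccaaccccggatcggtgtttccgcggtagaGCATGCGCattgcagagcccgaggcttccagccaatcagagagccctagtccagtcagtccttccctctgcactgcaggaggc
Uqcrh: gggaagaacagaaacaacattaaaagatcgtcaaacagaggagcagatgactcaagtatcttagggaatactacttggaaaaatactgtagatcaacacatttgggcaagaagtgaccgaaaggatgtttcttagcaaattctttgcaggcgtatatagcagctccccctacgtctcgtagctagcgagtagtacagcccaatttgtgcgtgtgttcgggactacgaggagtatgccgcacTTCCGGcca
The Ndufa4 window held none of the 3 motifs. The Ndufaf4 window held a pair of NRF1 matches on opposite strands that overlap, beginning 113 and 111 bases before the start, and another began at base 2 after the start, outside the printed stretch. The Ndufa6 window held an NRF1 match that begins 83 bases before the start. The Uqcrh window held an ETS match on the reverse strand, 9 bases before the start.

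Libraries held 23009062 to 26944030 counts. Erg was measured at 34.7 and 90.2 CPM (read counts scaled to library size, with TMM factors) in dKO cells with cytokines and at 40.1 and 91.3 CPM in dKO control, against 201 to 208 CPM in WT with cytokines and 186 to 196 CPM in WT control. Fli1 had 12.4 to 62.5 CPM in the 4 dKO libraries and 91.5 to 177 CPM in the 4 WT libraries. Neither passed the threshold (adjusted p from 0.0538 to 0.0864). The dKO replicates lay far apart, and in both treatments dKO replicate 2 had more of each than replicate 1. The dKO replicate 2 libraries also lay between the other dKO libraries and WT on the leading principal component, which held 57.1% of the variance. Of 8 endothelial marker genes, none was at 0 in a group, and 5 were lower in dKO control than in WT control. Their summed level, scaled to library totals, was 1312 to 3619 CPM in dKO and 4892 to 10693 CPM in WT. In such bulk samples, fewer cells of a type and less RNA per cell cannot be told apart.

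Across both treatments, the family as a whole held an overlapping share of the RNA in dKO and WT. With cytokines, both dKO libraries were above both WT libraries, and in control they overlapped. The 55 genes took 0.281% and 0.264% of the counts in dKO with cytokines and 0.303% and 0.274% in dKO control, against 0.256% and 0.255% in WT with cytokines and 0.279% and 0.290% in WT control. On the CPM scale their sum was 3150 and 2802 in dKO with cytokines and 3114 and 2623 in dKO control, against 2695 and 2601 in WT with cytokines and 2461 and 2632 in WT control. Without Ndufa4l2 the dKO sums became 2882, 2580, 2805 and 2449 and the WT sums 2644, 2567, 2435 and 2618, and the groups overlapped. Mitochondrially encoded genes took 0.760% to 0.913% of the counts in dKO and 0.833% to 1.04% in WT.

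Between dKO and WT control cells, 9 of the 55 genes passed the threshold of edgeR's quasi-likelihood test (adjusted p under 0.05 over all 15698 genes tested). In dKO, 4 were higher (Ndufa4l2, Ndufa6, Ndufa7 and Uqcrh), or 7.27%, beside 13.4% of all genes tested. The 5 that were lower in dKO (Ndufa4, Ndufaf4, Ndufb2, Uqcrc1 and Uqcrq) made 9.09%, beside 9.66% of all genes tested. With cytokines in both genotypes, 13 genes passed. Over all 15698 genes tested, 3617 passed in control and 5343 with cytokines. The counts for each role and for each list of genes given further on are to be read beside these. In dKO, 7 were then higher (among them the same 4, Ndufa13 and Ndufaf3), or 12.7%, beside 18.6% of all genes tested. The 6 that were lower (Ndufa12, Ndufa4, Ndufa9, Ndufaf4, Ndufb2 and Uqcrq) made 10.9%, beside 15.4% of all genes tested. The 2 comparisons, which use different libraries but the same fit, had 8 genes in common, 4 higher and 4 lower. The median log2 fold change of the 55 genes was 0.02 in control and 0.01 with cytokines, and the median of all tested genes was 0.02 and 0.01. In each comparison 48 of the 55 genes lay within 0.5 of 0 on the log2 scale. Of all 15698 genes tested, 8802 did in control and 7764 with cytokines. Over both treatments, all 4 dKO libraries lay on one side of all 4 WT libraries for 16 of the 55 genes (29.1%, beside 35.9% of all genes tested). Of these, 8 were above and 8 below WT, beside 19.6% and 16.3% of all genes tested. For 52 genes, the 95% interval of the control difference lay within a log2 fold change of 1 either way, beside 7742 of all genes tested. All genes tested were not matched to the 55 in count level.

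Both counts rested on few libraries. The control count of 9 fell when any WT library or dKO control replicate 1 was left out. The count of 13 with cytokines fell when any of the libraries compared or either WT control library was left out. Such fits leave 1 library in a group. The share of all genes that passed in them is not given here, so the falls cannot be read as particular to the 55 genes. Without both dKO replicate 2 libraries the counts were 18 in control, among them the same 9 genes, and 14 with cytokines, of which 10 were among the 13. The share of the 55 genes was then 32.7% and 25.5%, beside 34.5% and 41.0% of all 16258 genes tested in that fit. Without both dKO replicate 1 libraries the counts were 7 and 12 (12.7% and 21.8%, beside 17.2% and 26.8% of all 16211 genes tested). With library totals in place of TMM scaling, the split was 2 higher and 8 lower in control and 6 higher and 10 lower with cytokines, and the median of all genes moved to -0.13 and -0.07.

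**Figure D1:**
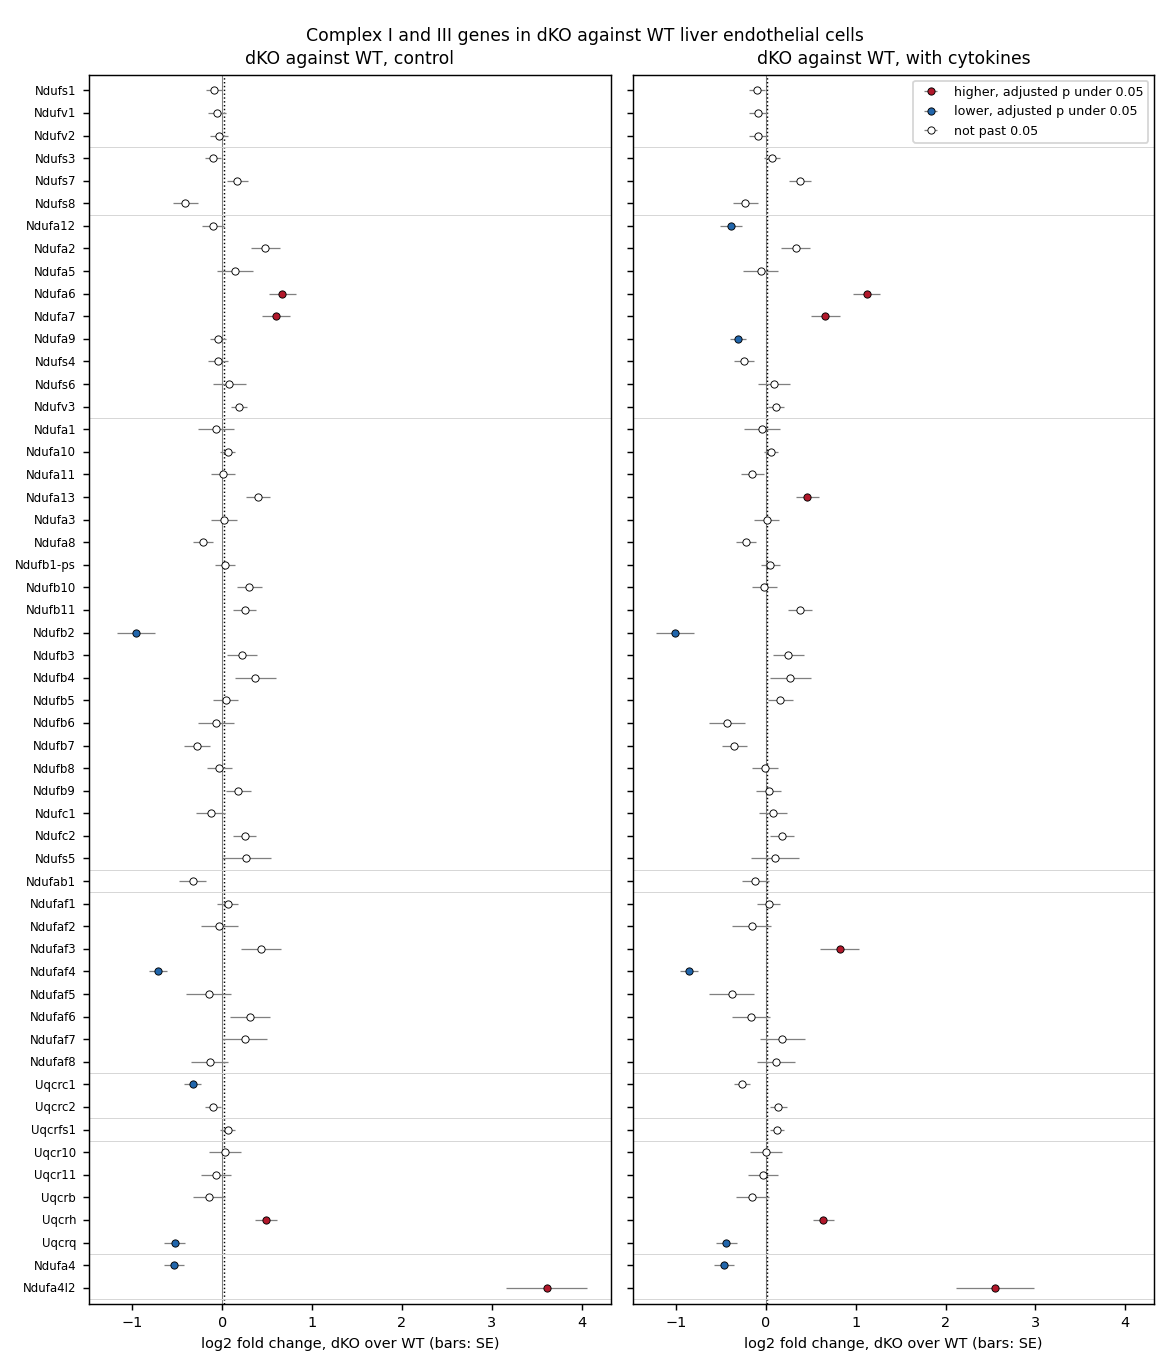
Log2 fold change of 54 of the 55 genes in dKO over WT, in control cells (left) and with cytokines (right), grouped by role from the core subunits of complex I at the top to Ndufa4 and Ndufa4l2 at the bottom. Points are fitted values, bars are standard errors, filled points passed an adjusted p of 0.05 and the dotted line is the median of all genes tested. Most points sit close to that line, and Ndufa4l2 is far to the right in both panels, at 3.61 and 2.55.

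The core subunits of complex I carry the flavin, the iron-sulfur clusters and the quinone site, and those at the NADH end stayed within a narrow range. At the NADH end, Ndufv1 binds the flavin and had 69.5 and 61.7 CPM in dKO with cytokines and 63.8 and 60.3 CPM in dKO control, against 73.2 and 66.2 CPM in WT with cytokines and 65.7 and 63.8 CPM in WT control. Ndufv2, an iron-sulfur subunit beside it, had 61.6 to 69.9 CPM in dKO and 64.5 to 70.4 CPM in WT. Ndufs1, which holds further iron-sulfur clusters, had 66.3 to 76.1 CPM in dKO and 70.1 to 81.6 CPM in WT. The dKO and WT ranges of these 3 genes overlapped, and their log2 fold changes lay between -0.10 and -0.04 in the 2 genotype comparisons.

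At the quinone end, Ndufs3 had 43.9 to 50.2 CPM in dKO and 47.1 to 51.2 CPM in WT, and Ndufs7 had 49.5 to 60.0 CPM in dKO and 41.7 to 49.7 CPM in WT. Ndufs8 had 26.6 to 38.9 CPM in dKO and 37.9 to 43.8 CPM in WT. None of these 3 genes passed in either genotype comparison. The log2 fold change of Ndufs8 was -0.41 in control (adjusted p = 0.0751), and that of Ndufs7 was 0.38 with cytokines (adjusted p = 0.0569).

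Accessory subunits of the matrix arm gave 2 of 9 genes past the threshold in control (22.2%) and 4 of 9 with cytokines (44.4%), where 3617 and 5343 of all 15698 genes passed. Ndufa6, a small LYR-motif protein that anchors an acyl carrier protein on complex I, is on chromosome 15 (82350140 to 82354322, minus strand, GRCm38). It had 119 and 95.5 CPM in dKO with cytokines and 136 and 108 CPM in dKO control, against 46.5 and 52.1 CPM in WT with cytokines and 74.7 and 78.3 CPM in WT control. Every dKO library was above every WT library, and the WT libraries with cytokines were the lowest of all. The log2 fold change was 0.67 (SE 0.15, adjusted p = 0.0256) in control and 1.12 (SE 0.15, adjusted p = 0.00459) with cytokines. The control call was kept in 1 of the 4 fits that left out 1 of the libraries compared, and the call with cytokines in all 4.

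Ndufa7, a further matrix arm subunit (chromosome 17, 33824572 to 33838317, plus strand), had 83.2 and 68.2 CPM in dKO with cytokines and 83.6 and 64.7 CPM in dKO control, against 47.2 and 48.7 CPM in WT with cytokines and 45.4 and 52.7 CPM in WT control. The groups did not overlap, and dKO replicate 1 was above replicate 2 in both treatments. For Ndufa7 the log2 fold change was 0.60 (SE 0.16, adjusted p = 0.0415) in control and 0.66 (SE 0.16, adjusted p = 0.0229) with cytokines. Its control call was lost with library totals, with only the libraries compared, and in most fits that left out 1 library. The call with cytokines was kept in 1 of the 4 fits without 1 of the libraries compared. Ndufa9, at the junction of the arms, averaged 37.3 ± 0.201 CPM in dKO and 46.4 ± 2.92 CPM in WT with cytokines (SD, n = 2 each, log2 fold change -0.31, adjusted p = 0.0369). Ndufa12 averaged 29.8 ± 1.79 CPM in dKO and 38.9 ± 2.99 CPM in WT with cytokines (SD, n = 2 each, log2 fold change -0.39, adjusted p = 0.0498). The calls of Ndufa9 and Ndufa12 were lost when any 1 of the 4 libraries compared was left out, and a near-identical annotated copy of Ndufa12 had 12% of its counts.

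In the membrane arm, which pumps protons, 1 of 20 accessory subunits passed in control and 2 with cytokines. Ndufb2 (chromosome 6, 39592574 to 39603382, plus strand) had 2.77 and 2.92 CPM in dKO with cytokines and 3.08 and 3.37 CPM in dKO control, against 5.12 and 6.32 CPM in WT with cytokines and 6.57 and 6.03 CPM in WT control. All dKO libraries were below all WT libraries. In control it differed by a log2 fold change of -0.96 (SE 0.21, adjusted p = 0.0222) and -1.01 (SE 0.21, adjusted p = 0.0143) with cytokines. Leaving out 1 of the 4 libraries compared kept the call in 1 fit in control and in 2 with cytokines. Both calls were lost with only the libraries compared. Ndufb2 was also the lowest of the 55 genes per kilobase of annotated exon, at a mean of 0.804 CPM per kilobase. It had 61 to 179 counts in a library over 5628 annotated exon bases, and the transcript in use may be shorter.

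Ndufa13, also known as GRIM-19, had 68.8 and 62.0 CPM in dKO with cytokines and 67.3 and 53.2 CPM in dKO control, against 48.8 and 46.5 CPM in WT with cytokines and 43.2 and 48.1 CPM in WT control. The groups did not overlap, and the difference passed with cytokines (log2 fold change 0.46, SE 0.13, adjusted p = 0.041). That call was lost when any 1 of the 4 libraries compared was left out. Ndufa2, second to Ndufa4l2 per kilobase, is an accessory subunit of the matrix arm with 59.1 to 79.0 CPM in dKO and 46.0 to 59.0 CPM in WT. Its dKO and WT ranges did not overlap, and it did not pass in control (log2 fold change 0.48, adjusted p = 0.0727) or with cytokines (0.33, adjusted p = 0.151).

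The assembly factors gave 1 of 8 genes past the threshold in control and 2 of 8 with cytokines, in opposite directions. Ndufaf4, which acts with Ndufaf3 on the quinone module of complex I, is on chromosome 4 (24898083 to 24905001, plus strand). It had 15.5 and 14.0 CPM in dKO with cytokines and 14.1 and 14.3 CPM in dKO control, against 26.9 and 26.6 CPM in WT with cytokines and 23.7 and 22.9 CPM in WT control. The dKO libraries agreed closely and were all well below WT. This gave a log2 fold change of -0.71 (SE 0.10, adjusted p = 0.00758) in control and -0.86 (SE 0.10, adjusted p = 0.00338) with cytokines. Leaving out 1 of the 4 libraries compared kept the call in 2 fits in control and in all 4 with cytokines.

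Ndufaf3 (chromosome 9, 108565537 to 108567434, minus strand) had 25.1 and 19.3 CPM in dKO with cytokines and 25.7 and 16.9 CPM in dKO control, against 12.4 and 12.7 CPM in WT with cytokines and 15.1 and 16.4 CPM in WT control. Thus the partner of Ndufaf4 was higher in dKO, and the lowest dKO library lay just above the highest WT library. It passed with cytokines (log2 fold change 0.82, SE 0.22, adjusted p = 0.0326) and not in control (0.43, adjusted p = 0.194). The call with cytokines was lost in most fits that left out 1 library. Ndufaf2 and Ndufaf6 had the next lowest levels per kilobase after Ndufb2, at 5.86 to 8.27 CPM and 2.97 to 4.48 CPM over the 8 libraries, and their dKO and WT ranges overlapped.

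Among the complex III genes, the core protein Uqcrc1 and the accessory subunits Uqcrh and Uqcrq moved in different directions. Uqcrh, the hinge protein that contacts cytochrome c1, is on chromosome 4 (116066965 to 116075071, minus strand). It had 159 and 141 CPM in dKO with cytokines and 181 and 149 CPM in dKO control, against 95.8 and 96.7 CPM in WT with cytokines and 113 and 121 CPM in WT control. Each dKO library was above each WT library. Its log2 fold change was 0.49 (SE 0.12, adjusted p = 0.0325) in control and 0.64 (SE 0.12, adjusted p = 0.011) with cytokines. The Uqcrh control call was lost with library totals, with only the libraries compared, and in most fits that left out 1 library. Its call with cytokines was kept in 1 of the 4 fits without 1 of the libraries compared.

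Uqcrq, a small subunit near cytochrome b (chromosome 11, 53427922 to 53430831, minus strand), had 82.3 and 72.4 CPM in dKO with cytokines and 55.1 and 50.6 CPM in dKO control, against 103 and 107 CPM in WT with cytokines and 70.0 and 82.8 CPM in WT control. Within each treatment both dKO libraries were below both WT libraries. The log2 fold change was -0.53 (SE 0.12, adjusted p = 0.0234) in control and -0.44 (SE 0.12, adjusted p = 0.0296) with cytokines. The control call was lost when any 1 of the 4 libraries compared was left out, and when only those 4 were fitted. With cytokines the call was also lost when only the libraries compared were fitted. It was kept in 1 of the 4 fits without 1 of them. Uqcrc1, a core protein related to mitochondrial processing peptidases (chromosome 9, 108936633 to 108949623, plus strand), averaged 116 ± 2.21 CPM in dKO control and 146 ± 4.99 CPM in WT control (SD, n = 2 each, log2 fold change -0.33, adjusted p = 0.042). It was lower in all 4 dKO libraries (115 to 125 CPM) than in all 4 WT libraries (141 to 156 CPM), and the control call was lost in 7 of the 8 fits that left out 1 library. Uqcrc2, the other core protein, had 111 to 134 CPM in dKO and 117 to 124 CPM in WT, and the Rieske protein Uqcrfs1 had 81.6 to 87.2 CPM in dKO and 76.2 to 83.3 CPM in WT. Neither passed in a genotype comparison.

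**Figure D2:**
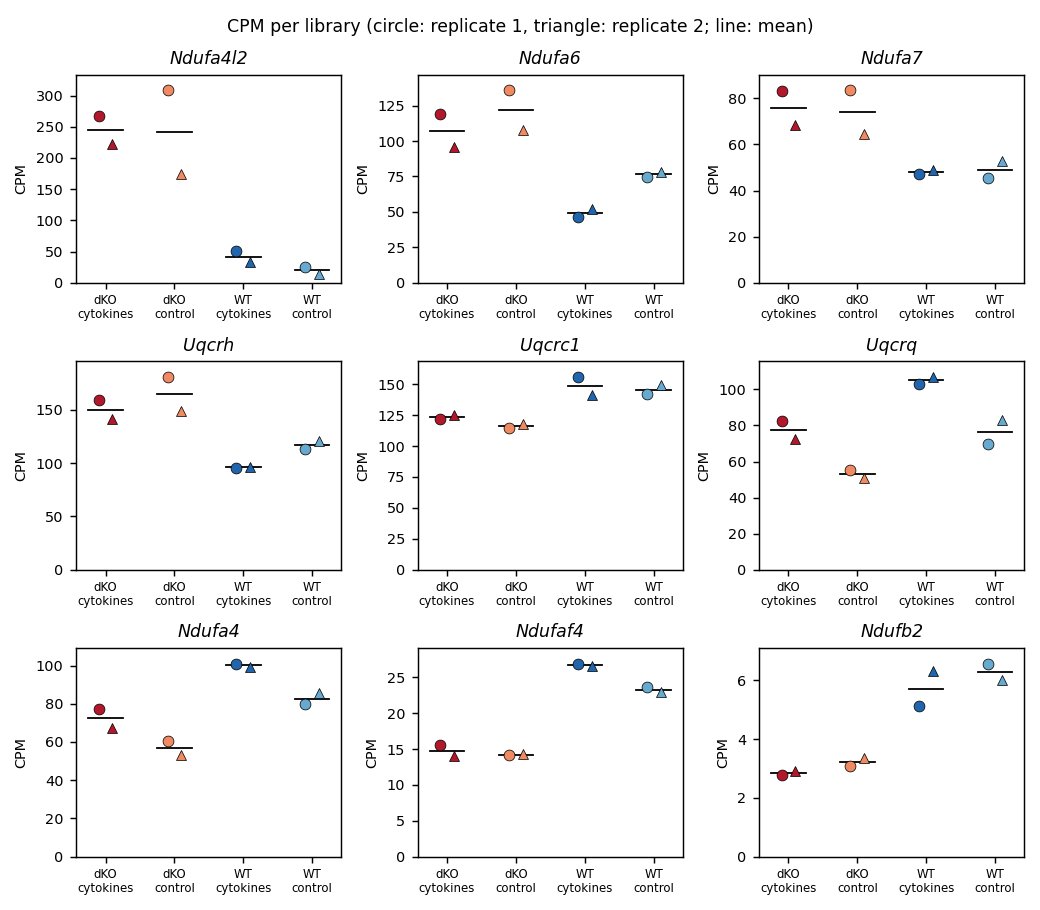
CPM of 9 genes in each of the 8 libraries, with each axis starting at 0. Columns are dKO with cytokines, dKO control, WT with cytokines and WT control, circles are replicate 1, triangles are replicate 2 and lines are group means. Ndufa4l2, Ndufa6, Ndufa7 and Uqcrh sit higher in dKO, and Ndufa4, Ndufaf4, Ndufb2, Uqcrc1 and Uqcrq sit lower within each treatment.

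The widest difference was within the pair Ndufa4 and Ndufa4l2, which share the prefix but are not complex I subunits by present assignment. Ndufa4 is a subunit of complex IV, as shown in mammalian cells. Ndufa4l2 is a paralog that hypoxia-inducible factor 1 induces and that lowers complex I activity in hypoxic mouse and human cells. It lies on chromosome 10 (127514967 to 127517154, plus strand), and Ndufa4 on chromosome 6 (11900292 to 11907497, minus strand).

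Ndufa4l2 had 268 and 222 CPM in dKO with cytokines and 309 and 174 CPM in dKO control, against 50.9 and 33.1 CPM in WT with cytokines and 25.8 and 13.8 CPM in WT control. Every dKO library was far above every WT library. The fitted difference was 12.2-fold in control (log2 fold change 3.61, SE 0.45, adjusted p = 0.00595) and 5.84-fold with cytokines (2.55, SE 0.43, adjusted p = 0.00883). The control call was kept whichever single library was left out, and the call with cytokines was lost only without WT cytokines replicate 2. Per kilobase of exon, Ndufa4l2 held rank 1 of the 55 genes in both dKO groups, rank 20 in WT with cytokines and rank 38 in WT control.

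Ndufa4 had 77.5 and 67.3 CPM in dKO with cytokines and 60.5 and 53.4 CPM in dKO control, against 101 and 99.2 CPM in WT with cytokines and 79.9 and 85.6 CPM in WT control. All dKO libraries were below all WT libraries, the opposite of its paralog. The difference was 1.45-fold in control (log2 fold change -0.54, SE 0.11, adjusted p = 0.0181), and the log2 fold change was -0.47 (SE 0.11, adjusted p = 0.0188) with cytokines. Each Ndufa4 call was kept in 1 of the 4 fits that left out 1 of the libraries compared. The ratio of Ndufa4l2 to Ndufa4 per kilobase was 4.37 and 4.16 in dKO with cytokines and 6.44 and 4.11 in dKO control, against 0.634 and 0.421 in WT with cytokines and 0.407 and 0.204 in WT control. Ndufa4l2 thus exceeded Ndufa4 in each dKO library and was below it in each WT library.

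**Figure D3:**
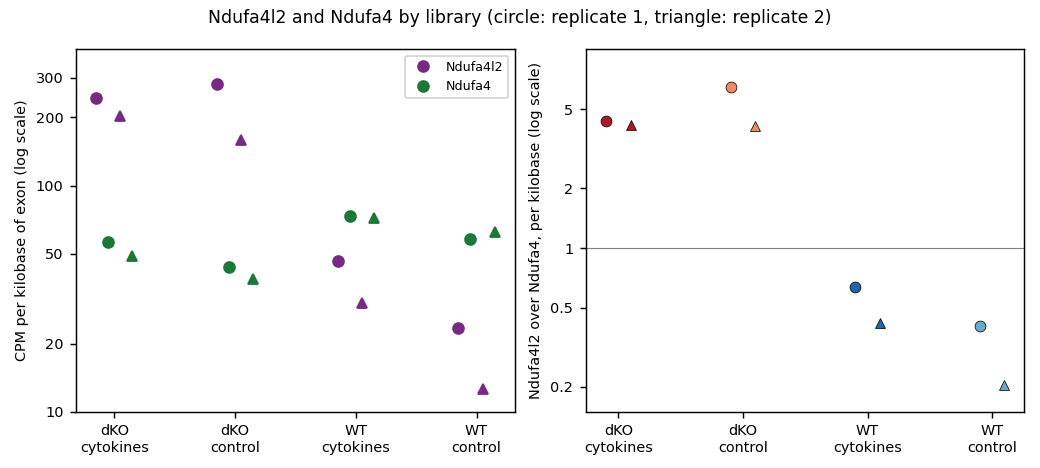
Ndufa4l2 (purple) and Ndufa4 (green) in CPM per kilobase of exon on a log axis (left), and their ratio on a log axis with a line at 1 (right), for each library of the 4 groups. Circles are replicate 1 and triangles replicate 2. The ratio is 4.11 to 6.44 in the dKO libraries and 0.204 to 0.634 in the WT libraries.

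Some markers of other cells were higher in the same libraries as Ndufa4l2, and most of those tested did not pass. Of 8 stellate cell and fibroblast markers, 7 were tested and 3 were higher in dKO in each genotype comparison (Pdgfrb, Lum and Col1a1). Their summed level was 12822 to 14579 CPM in dKO and 9706 to 10426 CPM in WT, most of it Dcn, which did not pass, and the stellate cell genes Lrat and Des had at most 1 and 23 counts in a library. Of 8 pericyte markers, chosen after values were seen, 5 were tested and 2 were higher in dKO in each genotype comparison (Notch3 and Anpep). Their log2 fold changes in control and with cytokines were 5.47 and 5.40 for Notch3 and 3.47 and 3.88 for Anpep. Kcnj8 (1.21 and 0.36) and Abcc9 (1.56 and 0.68) were above 0 and did not pass. Rgs5 had 2.99 and 0.873 CPM in dKO control and 6.76 and 9.84 CPM in WT control (log2 fold change -2.10, adjusted p = 0.139). With cytokines its log2 fold change was 0.33 (adjusted p = 0.785). The sum of the 8 pericyte markers was 103 to 224 CPM in dKO and 39.2 to 138 CPM in WT, and Higd1b and Vtn were at 0 in all groups. Of 5 cholangiocyte and mesothelial markers, 2 were tested and 1, Sox9, was higher in dKO in each genotype comparison (log2 fold change 4.88, adjusted p = 0.00101 in control and 3.79, adjusted p = 0.00116 with cytokines). The sum of those 5 was at most 17.4 CPM in dKO, every dKO library above every WT library, and 0.797 to 2.38 CPM in WT. The part of these markers, or of low oxygen, in the Ndufa4l2 difference was not tested. Summed leukocyte markers were 4.38 to 8.76 CPM in all libraries, with Cd3e at 0 in all groups, and summed hepatocyte markers were at most 0.0811 CPM.

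Cytokines left most of these genes near their control level. The fit used here pairs no libraries. With same-numbered libraries of a genotype paired, more of the 55 genes and more of all genes passed, as given further on. In WT, 2 of the 55 genes passed: 1 was higher (Uqcrq, 1.82%, beside 9.72% of all genes tested) and 1 lower (Ndufa6, 1.82%, beside 7.69%). In dKO, 1 gene was higher (Uqcrq, 1.82%, beside 3.50% of all genes tested) and none lower (beside 2.06%). Uqcrq averaged 77.4 ± 6.98 CPM with cytokines and 52.9 ± 3.12 CPM in control in dKO (log2 fold change 0.55, SE 0.12, adjusted p = 0.0486), and 105 ± 2.79 CPM with cytokines and 76.4 ± 9.04 CPM in control in WT (0.46, SE 0.12, adjusted p = 0.041, SD, n = 2 each). Ndufa6 averaged 49.3 ± 3.98 CPM with cytokines and 76.5 ± 2.53 CPM in control in WT (log2 fold change -0.63, SE 0.15, adjusted p = 0.0362), and in dKO its log2 fold change was -0.19. The dKO call of Uqcrq was lost whichever single library was left out, and both WT calls were lost when any 1 of the 4 WT libraries was left out. With library totals in place of TMM scaling, 0 genes were higher and 5 lower in WT and 0 higher and 1 lower in dKO, where the median of all genes moved to -0.22 in WT and -0.15 in dKO.

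The median log2 fold change with cytokines was 0.07 in WT and 0.06 in dKO, where the median of all tested genes was -0.01 in each. It was above 0 for 37 of the 55 genes in WT and for 41 in dKO. No core subunit passed in either genotype by edgeR, where 0 of the 10 had an unadjusted p under 0.05, or by DESeq2, which also called 0. Their log2 fold changes lay between -0.16 and 0.11 in WT and between -0.02 and 0.29 in dKO.

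In the fit of the 4 groups, which pairs no libraries, the cytokine effect was not shown to differ between dKO and WT for any of the 55 genes: edgeR called 0 (beside 0% of all genes tested), 0 had an unadjusted p under 0.05, and DESeq2 called 0. Among all genes, 1683 had an unadjusted p under 0.05 and DESeq2 called 372. The difference of the effects ran from -1.06 for Ndufa4l2 (adjusted p = 0.588) to 0.44 for Ndufa6 (adjusted p = 0.537). For Ndufa4l2, the log2 fold change with cytokines was 0.02 in dKO and 1.09 in WT (adjusted p = 0.983 and 0.126).

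**Figure D4:**
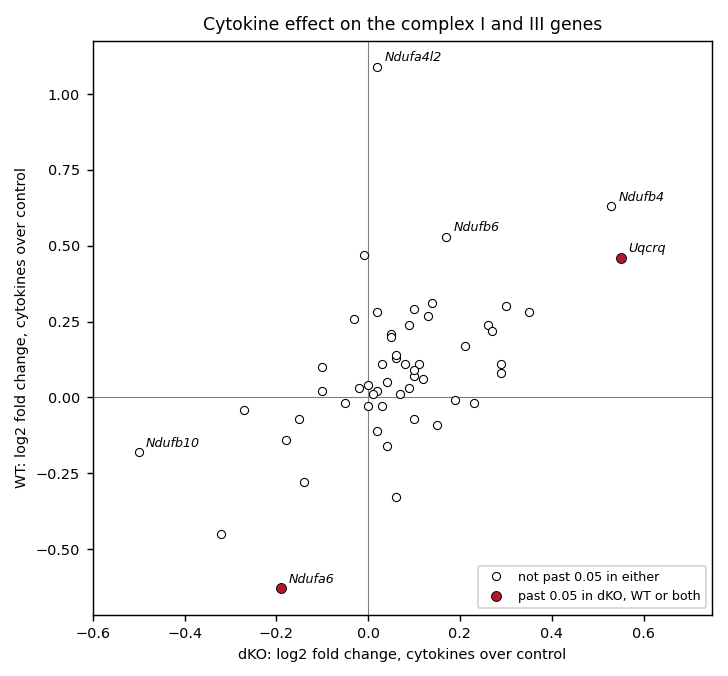
Log2 fold change of 54 of the 55 genes with cytokines over control, in dKO (horizontal) and in WT (vertical). Filled points, Uqcrq and Ndufa6, passed an adjusted p of 0.05 in at least 1 genotype. Most genes lie within 0.5 of 0 on both axes, and Ndufa4l2 stands at 1.09 in WT and 0.02 in dKO.

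Genes of the respiratory chain outside the prefixes were read beside these. Cyc1, the cytochrome c1 of complex III that the prefixes miss, averaged 73.3 ± 0.176 CPM in dKO control and 90.5 ± 0.578 CPM in WT control (log2 fold change -0.30, adjusted p = 0.0321). With cytokines it averaged 81.3 ± 2.40 CPM in dKO and 104 ± 1.75 CPM in WT (-0.36, adjusted p = 0.0141, SD, n = 2 each). The control call of Cyc1 was lost with no filter, with only the libraries compared, and in most fits that left out 1 library. Cycs, the mobile carrier cytochrome c between complexes III and IV, had 27.5 and 25.7 CPM in dKO with cytokines and 13.6 and 15.9 CPM in dKO control, against 51.6 and 50.4 CPM in WT with cytokines and 28.4 and 33.6 CPM in WT control. It was lower in dKO within each treatment and higher with cytokines within each genotype, with no overlap in any of these comparisons. The log2 fold change between dKO and WT was -1.07 (SE 0.13, adjusted p = 0.00479) in control and -0.94 (SE 0.13, adjusted p = 0.00444) with cytokines. With cytokines over control it was 0.85 in dKO (adjusted p = 0.0216) and 0.72 in WT (adjusted p = 0.0147). In dKO this call was kept in 2 of the 4 fits without 1 of the libraries compared, and in WT in 0 of 4. The dKO call was also lost with only the libraries compared.

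Of 14 nuclear complex IV genes, 2 were higher and none lower in dKO in control (Cox4i2 and Cox7a2l), and 4 were higher and 1 lower with cytokines. Cox4i2, the isoform of subunit 4 that mammals express in lung and under low oxygen, had 7.77 and 11.7 CPM in dKO with cytokines and 9.52 and 10.4 CPM in dKO control, against 0.617 and 0.589 CPM in WT with cytokines and 0.665 and 0.135 CPM in WT control. The log2 fold change was 4.64 (SE 0.60, adjusted p = 0.00586) in control and 4.01 (SE 0.58, adjusted p = 0.00545) with cytokines, and the groups were far apart. The part of low oxygen, or of the markers of other cells above, in the Cox4i2 difference was not tested. Its per-kilobase ratio to Cox4i1 was 0.093 to 0.134 in dKO and 0.00144 to 0.00834 in WT, so Cox4i1 remained the more abundant isoform in every library. Cox7a2l, which helps join complexes III and IV into supercomplexes, averaged 150 ± 9.01 CPM in dKO and 96.9 ± 5.25 CPM in WT with cytokines (SD, n = 2 each, log2 fold change 0.63, adjusted p = 0.00493).

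Of 18 assembly factors outside the prefixes, 2 were higher and 1 lower in dKO in control, and 2 were higher and none lower with cytokines. Ttc19, which clears Rieske protein fragments from complex III, had 24.6 to 48.5 CPM in dKO and 11.2 to 17.1 CPM in WT (log2 fold change 1.34, adjusted p = 0.0255 in control and 1.33, adjusted p = 0.0184 with cytokines). Timmdc1, a complex I assembly factor, had 21.4 to 25.9 CPM in dKO and 15.2 to 16.9 CPM in WT (0.57, adjusted p = 0.0228 in control and 0.67, adjusted p = 0.0101 with cytokines). Leaving out 1 of the 4 libraries compared kept each Ttc19 call in 1 fit. The Timmdc1 call was then kept in 1 fit in control and in 3 with cytokines. Of 17 ATP synthase genes, 1 passed in control, Atp5b lower in dKO, and 1 was higher and 2 lower with cytokines. Of 6 mitochondrially encoded complex I and III genes, edgeR called 0 in control (0 at an unadjusted p under 0.05) and with cytokines 1, mt-Cytb, lower in dKO. Of 4 complex II genes edgeR called 0 in either comparison, with 2 at an unadjusted p under 0.05 in control and 1 with cytokines.

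Of 16 regulators of mitochondrial biogenesis, 14 had a log2 fold change below 0 and 2 above 0 between dKO and WT control (median -0.20). In control 1 passed as higher and 1 as lower in dKO (12.5% together). With cytokines 2 were higher and 3 lower (31.2% together). The 2 higher genes were Nfe2l2, a regulator of the oxidative stress response, and Ssbp1, which binds single-stranded mitochondrial DNA. The 3 lower genes were Tfam, which maintains mitochondrial DNA, Gabpb1, a subunit of GABP, and Pprc1, a coactivator. Of 17 genes of the tricarboxylic acid cycle, 1 was higher and 2 lower in control, and 2 were higher and 4 lower with cytokines. Of 12 markers of mitochondrial mass, 1 was higher and 2 lower in control, and 2 were higher and 3 lower with cytokines. The list medians in control lay between -0.20 and 0.08, apart from -0.69 for the pair Cyc1 and Cycs.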

How the data were processed

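The data were 1 table of whole-number read counts per Ensembl gene, as deposited by the authors, for 8 libraries of polyadenylated RNA. The submitters' processing notes list FastQC 0.11.5, STAR 2.7.6a and build GRCm38. How reads were counted, with which annotation and strand setting, is not given in the sources used here. A stranded or an unstranded kit was used per the labels' protocols, which do not say which library had which. Overlapping genes of opposite strands may therefore share reads. At least 10% of exon bases were overlapped in 5 of the 55 genes (Ndufa2, Ndufb1-ps, Ndufb11, Ndufb5 and Ndufb6), none of them past a threshold. Smaller overlaps occurred in other genes, some of which passed a threshold, among them Ndufa4l2 (2.9%), Ndufb2 (2.6%) and Ndufaf3 (2.6%).

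Symbols, coordinates (counted from 1) and exon lengths came from GENCODE M21. The deposited counts were fitted in edgeR 4.0.16 (R 4.3.3) after TMM scaling, with its filter on low counts by group (15698 genes tested, all 55 among them) and a robust quasi-likelihood fit of the 4 groups over all 8 libraries, with 4 residual degrees of freedom. Each of 5 contrasts had a two-sided test, and p-values were adjusted by Benjamini-Hochberg over all genes tested. CPM used TMM-scaled library sizes, except marker sums and the shares of counts, which used library totals. The script was tested on simulated counts with less spread between replicates than these data, so that test does not measure how the fit performs here. DESeq2 1.42.0, other scaling, no filter, fewer libraries and a replicate block were alternatives. Transcripts were compared with blastn 2.17.0 to find copies: 7 of the 55 genes had an annotated copy of at least 95% identity over at least 50% of a transcript, and only for 3 did the copies reach 1% of the gene's counts. Per-kilobase values divide by the union of annotated exons, which is longer than the transcript in use where isoforms differ.

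Genes named with values were the core subunits, Ndufa4 and Ndufa4l2, up to 8 rises and 8 falls per contrast, the 3 highest and lowest genes per kilobase, and, in each list, up to 2 largest changes where a result turned on them. Listed genes named without values were named because they passed the threshold. Not every gene that this names is reported here. The gene set, the lists and the tests were chosen with earlier results of these data known. At 23009062 to 26944030 counts per library, the lowest count of any of the 55 genes was 61.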

Additional observations from a re-analysis of the deposited data

How the results depend on the processing

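Calls of the 55 genes and of Cyc1, Cycs, Cox4i2, Cox7a2l, Ttc19, Timmdc1 and Idh2 were followed through the alternatives (678 evaluations over 42 gene and comparison pairs). Other genes named from the lists were not followed. All kept their direction, and in 176 of them the adjusted p no longer passed. The number of the 55 genes past the threshold moved more. For most of these settings the share of all genes is not given here, so the moves cannot be read as particular to the 55 genes. With only the libraries compared in the fit, it was 4 in control and 8 with cytokines between dKO and WT, and 0 for cytokines in dKO and 6 in WT; fewer libraries were in each such fit. For cytokines in WT it was 5 with library totals, 4 with DESeq2, 5 without both dKO replicate 2 libraries and 6 without both dKO replicate 1 libraries. Between dKO and WT control it was 18 without both dKO replicate 2 libraries (12 higher and 6 lower in dKO, a share of 32.7% beside 34.5% of all genes tested), and for cytokines in dKO it was 0 without both dKO replicate 1 libraries; the cause was not tested. Leaving out each library in turn gave 1 to 10 between dKO and WT control, 2 to 14 with cytokines, 0 to 0 for cytokines in dKO, 0 to 2 in WT and 0 to 0 for the difference of the effects. The median log2 fold change of the 55 genes moved with that of all genes under library totals, to -0.13 and -0.06 between dKO and WT, and to -0.07 in dKO and -0.14 in WT for cytokines. Depth limits Ndufb2 and Ndufaf6 most, which had the fewest counts.

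Libraries share replicate numbers, and the labels do not say that a number marks a shared animal or day. The correlation of deviations from the group means across 15698 genes was 0.69 between same-numbered dKO libraries, 0.43 between WT libraries and 0.02 to 0.13 across genotypes. No share of all genes was set beside the counts with the number as a replicate block. These counts were 10 in control and 15 with cytokines between dKO and WT, 2 for cytokines in dKO and 4 in WT. With the block within genotype, they were 4 in dKO and 12 in WT (9 higher and 3 lower), where 3769 and 5943 of all 15698 genes passed. In that fit 1 of the 55 genes, Ndufa4l2, passed for the difference of the effects (adjusted p = 0.0343, the cytokine effect being lower in dKO), where 947 of all genes did.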

Other observations

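In dKO the 55 genes differed between replicates. With cytokines, 48 of them had a higher CPM in dKO replicate 1 than in dKO replicate 2, and 48 did in dKO control, where 49.7% and 51.7% of all tested genes did. The median difference, replicate 1 minus replicate 2, was 0.18 and 0.22 on the log2 scale of CPM plus 0.5, beside 0.00 and 0.01 for all tested genes. In WT the number was 36 with cytokines and 11 in control, and the median differences were 0.03 and -0.10. The dKO replicates also differed in other genes. With cytokines and in control, replicate 1 had 34.7 and 40.1 CPM of Erg and replicate 2 had 90.2 and 91.3 CPM. In the same order, Lum had 1311 and 1125 CPM in replicate 1 and 487 and 393 CPM in replicate 2, and Stab1 had 24 and 18.6 CPM in replicate 1 and 450 and 611 CPM in replicate 2. Summed endothelial markers were 1312 and 1872 CPM in replicate 1 and 2214 and 3619 CPM in replicate 2. The part of any of these in the shift was not tested. The 2 dKO libraries of a number correlate in their deviations, so the 2 treatments are not independent repeats, and with 2 replicates no test was made. Set beside this, the median difference between dKO and WT control was 0.02 in the fit of all libraries, 0.07 without both dKO replicate 2 libraries and -0.08 without both dKO replicate 1 libraries.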
